A study of Arabidopsis thaliana with 12 samples.

Results

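The arrays compared here are those of unchilled seedlings, 2 of the rcf1-1 mutant and 2 of its wild type, chosen by their labels as the 0 h samples. They are 4 of the 12 arrays of a study of cold responses in Arabidopsis thaliana, in which both genotypes were also chilled at 4 °C for 12 h or 24 h. The wild type was Columbia with the gl1 mutation and a luciferase reporter driven by the CBF2 promoter. The labels name the mutant only as rcf1-1 and do not say whether it shares the gl1 mutation and the reporter. All seedlings were 14 days old and had been grown at 21 °C on agar with sucrose under long days. Each group held 2 biological replicates of whole seedlings, and the mutant is a single allele. What is compared is therefore the state of the plants before any cold, across 22746 probe sets of the ATH1 GeneChip.

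RCF1 is a DEAD-box RNA helicase that acts in pre-mRNA splicing and is needed for cold tolerance, so its mutant has been studied mainly in the cold. Several response programmes of seedlings are known by marker genes that stay low in unstressed plants. Jasmonate together with ethylene raises plant defensins, iron shortage raises a set of transcription factors of root and shoot, and disturbed mitochondria raise nuclear genes for mitochondrial proteins. Ribosome assembly in the nucleolus and cell wall loosening are programmes of growing tissue.

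At 0 h, 742 probe sets were higher and 492 lower in rcf1-1 (limma, adjusted p under 0.05), which is 3.26% and 2.16% of those tested and 5.43% together. In a whole seedling, fewer cells of a type and less RNA per cell cannot be told apart. The differences were mostly modest, with a median of 0.77 on the log2 scale among those higher and -0.72 among those lower. More than a 2-fold difference was measured for 150 of the higher and 60 of the lower probe sets, more than 4-fold for 21 and 2, and more than 8-fold for 11, all of them higher. On all 1234 called probe sets both rcf1-1 arrays lay on the same side of both wild-type arrays. The median difference over all probe sets was -0.02. Of the called probe sets, 382 higher and 257 lower have exactly 1 gene in the annotation used, and only these are named. Counted by gene, 2.84% of the 13333 genes were called higher and 1.92% lower, 4.76% together, and these shares are the background for the gene lists. Of the same genes 6145 lay above 0, called or not, which is the background for counts of genes above or below 0.

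The number of calls depends on where the spread between replicates is taken from. It was taken here from the 8 arrays at 0 h and 12 h, because both replicate 2 arrays at 24 h had a strong 3′ bias. On those 2 arrays the 5′ probe set of the GAPDH control lay 5.13 and 4.45 below the 3′ probe set, against 0.57 to 1.06 below on the 8 used. With all 12 arrays in the fit 25 probe sets were called, and with the 4 unchilled arrays alone 331, and all of these are also among the 1234. The named genes that the 12-array fit also called were AT4G33720, PDF1.2, PDF1.2b, JAL23, UPOX, BHLH101, AT1G54020, AT3G16530, AT5G09570, AT2G43530, JRG21, AT5G45310, AT2G41190 and AT5G22460. Leaving out wild-type replicate 1 gave 2671 calls, leaving out rcf1-1 replicate 1 gave 199 and rcf1-1 replicate 2 gave 156. Leaving out an rcf1-1 array at 12 h, which bears on the spread only, gave 716 or 715. In all 4 of the fits that leave out an unchilled array, 117 of the 1234 probe sets were called. The wild-type replicates differed by more than 2-fold on 238 probe sets (r = 0.989 across probe sets) and the rcf1-1 replicates on 30 (r = 0.996).

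**Figure D1:**
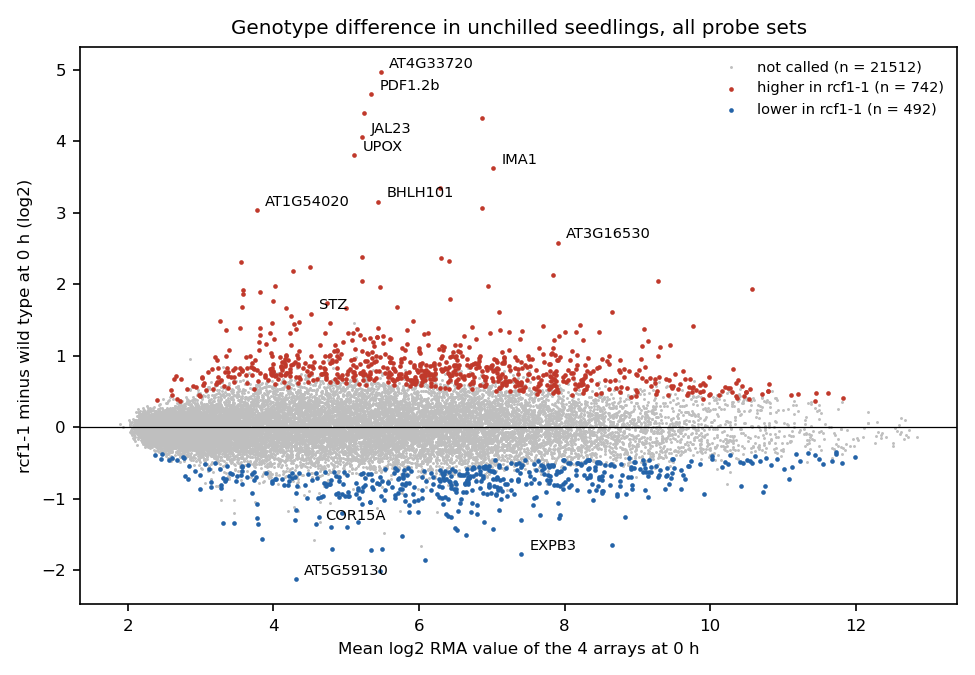
Difference between rcf1-1 and wild type at 0 h on the log2 scale against the mean log2 value of the 4 arrays, 1 point per probe set. The 742 probe sets called higher reach 4.96 above 0, whereas the 492 called lower reach no further than -2.12 among those with 1 gene.

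Genes of jasmonate and ethylene defence were among those furthest above wild type. Only 5 of the 25 listed genes were paired with a probe set. Of these 4 rose, PDF1.2, PDF1.2b, THI2.1 and JRG21, none fell, and the median difference was 1.98 against -0.02 over all genes. PDF1.2, a plant defensin and the usual marker of combined jasmonate and ethylene signalling, was measured at 3.34 and 2.77 in wild type and 6.56 and 8.33 in rcf1-1. Where the mean of the lower group lies below the median of every array, of which the lowest was 4.04, a called difference is given as a lower bound in size. The words at least and lower bound refer to the low signal only, not to the spread between replicates. With 1 array left out such a difference could be smaller, as for THI2.1, which went from 1.90 to 1.09. For PDF1.2 the difference was at least 4.39 ± 0.42 (SE, n = 2 per genotype, adjusted p = 9.49e-05). PDF1.2b, its close relative, read 3.48 and 2.54 in wild type and 6.93 and 8.41 in rcf1-1, a difference of at least 4.66 ± 0.48 (adjusted p = 0.000186). Its probe set can also bind transcripts of related genes, so the defensins are not fully separate measurements.

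THI2.1, a thionin with antimicrobial activity that jasmonate induces, read 2.92 and 2.80 in wild type and 3.95 and 5.57 in rcf1-1. Its difference was at least 1.90 ± 0.35 (adjusted p = 0.00732), and the rcf1-1 replicates were further apart than for most genes. JRG21, named for its regulation by jasmonate, read 3.21 and 2.85 in wild type and 4.58 and 5.42 in rcf1-1, a difference of at least 1.98 ± 0.24 (adjusted p = 0.000508). In these 4 genes every rcf1-1 value lay above every wild-type value, as on every probe set called higher, and rcf1-1 replicate 2 was the higher of the mutant arrays. JMT, which makes methyl jasmonate, differed by 0.42 ± 0.13 and did not pass the test (adjusted p = 0.0848). Picked after their values were seen, ORA47, a transcription factor of jasmonate synthesis genes, was higher by at least 1.69 ± 0.18 (adjusted p = 0.000186) and OPCL1, an enzyme of jasmonate synthesis, by 0.75 ± 0.18 (adjusted p = 0.0294), the latter called in 1 of the 4 leave-one-out fits. Not every antimicrobial gene went that way, since the thionin THI2.2 was lower, with a difference of -0.87 ± 0.12 (adjusted p = 0.0013).

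Among all named genes the highest difference belonged to AT4G33720, which has no symbol in the annotation used. It read 3.04 and 2.95 in wild type and 7.37 and 8.54 in rcf1-1, a difference of at least 4.96 ± 0.33 (adjusted p = 6.52e-06), and was called in each leave-one-out fit and with all 12 arrays. JAL23, a protein of the jacalin-related lectin family, read 3.06 and 3.32 in wild type and 6.56 and 7.95 in rcf1-1, at least 4.06 ± 0.32 higher (adjusted p = 2.48e-05). The genotypes were apart by several units in both. AT3G16530 started from a clear wild-type level, with 6.79 and 6.44 in wild type and 8.88 and 9.51 in rcf1-1, a 5.99-fold difference (2.58 ± 0.19, adjusted p = 1.85e-05). AT1G54020 read 2.28 and 2.22 in wild type and 4.33 and 6.24 in rcf1-1, at least 3.04 ± 0.40 higher (adjusted p = 0.000919), with the mutant replicates nearly 2 log2 units apart. The remaining named genes without a symbol among the 15 largest differences were AT2G43530, AT5G05600 and AT5G35940, higher by 1.95 to 2.13, and AT3G23550, higher by at least 2.24.

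Nuclear genes that respond to disturbed mitochondria were also higher. Of 18 listed genes of mitochondrial and oxidative stress 8 were paired with a probe set. Among those 8 genes 4 rose and none fell, with a median of 1.01. The highest was AT2G21640, the locus of UPOX, a mitochondrial protein upregulated by oxidative stress. It read 3.41 and 3.0 in wild type and 6.98 and 7.04 in rcf1-1, at least 3.81 ± 0.18 higher (adjusted p = 1.46e-07), and the replicates of rcf1-1 were within 0.1 of each other. AT5G09570 read 3.93 and 4.13 in wild type and 6.48 and 6.35 in rcf1-1, at least 2.39 ± 0.22 higher (adjusted p = 6.47e-05). AT5G51440, the locus of the mitochondrial small heat shock protein HSP23.5, read 4.37 and 3.94 in wild type and 5.56 and 6.10 in rcf1-1, a difference of 1.67 ± 0.21 (adjusted p = 0.000697). AT2G41730 rose from 3.31 to 4.48 as group means, at least 1.16 ± 0.20 (adjusted p = 0.00524), on a probe set open to related transcripts, and was not called without rcf1-1 replicate 2.

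The alternative NAD(P)H dehydrogenases of the same list did not pass the test. NDB2 differed by -0.05 ± 0.15 (adjusted p = 0.908) and NDB4 by 0.27 ± 0.18 (adjusted p = 0.471), both oxidising NADH or NADPH at the inner mitochondrial membrane outside the proton-pumping chain. AT2G04050 differed by 0.85 ± 0.24 (adjusted p = 0.0598) and AT2G32020 by 0.11 ± 0.19 (adjusted p = 0.83). NDB3, a further member of that enzyme family picked after its value was seen, was higher by at least 0.85 ± 0.21 (adjusted p = 0.0287) and was called in 1 of the 4 leave-one-out fits. HSP23.5 is also the 1 that rose of 3 heat shock genes paired with a probe set, from 12 listed, and the list's median was 0.48.

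Of 18 listed genes of iron deficiency and storage only 3 were paired with a probe set, and these rose, BHLH101, PYE and IMA1. BHLH101, a transcription factor raised by iron shortage, read 4.47 and 3.24 in wild type and 6.91 and 7.11 in rcf1-1, at least 3.16 ± 0.29 higher (adjusted p = 6.79e-05). PYE, short for POPEYE, a regulator of iron homeostasis, read 4.27 and 3.83 in wild type and 5.34 and 5.38 in rcf1-1, a difference of 1.31 ± 0.19 (adjusted p = 0.00184). In both genes all mutant values lay above all wild-type values, as on every probe set called higher, and the mutant replicates were close together. The wild-type replicates of BHLH101 were 1.22 apart and those of PYE 0.44, replicate 1 being the higher in both. IMA1, a small peptide gene at AT1G47400 that responds to iron shortage, read 6.87 and 3.53 in wild type and 8.87 and 8.79 in rcf1-1. Its wild-type replicates thus differed by more than 3 units, and its difference of 3.63 ± 0.65 (adjusted p = 0.00643) ranged from 1.96 to 5.29 over the leave-one-out fits, 2 of which called it. The difference of IMA1 without wild-type replicate 2 was 1.96, without wild-type replicate 1 it was 5.29, and without either rcf1-1 array it was not called.

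**Figure D2:**
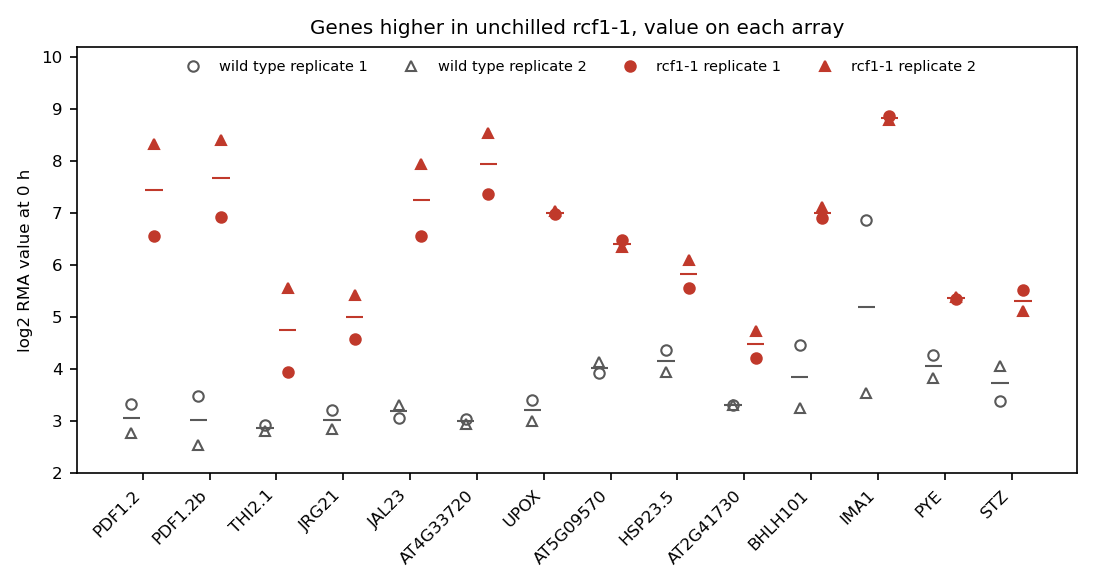
Log2 RMA values at 0 h of genes higher in rcf1-1, with a point for each array and a short line at each group mean. The wild-type values of PDF1.2, THI2.1, JAL23, AT4G33720 and UPOX all lie below 4, and the IMA1 replicates of wild type stand at 6.87 and 3.53.

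Genes of ribosome biogenesis were raised by a smaller amount but widely. Of 28 listed genes 12 were paired with a probe set. Among those 12 genes 8 rose, none fell and all 12 differences were above 0, with a median of 0.74. PES, the plant pescadillo protein, was measured at 7.72 and 7.40 in wild type and 8.18 and 8.13 in rcf1-1, and BOP1 (AT2G40360) and WDR12 (AT5G15550), its partners in large-subunit assembly, at 7.74 and 7.69 in wild type and 8.47 and 8.47 in rcf1-1 and at 5.90 and 5.77 in wild type and 6.52 and 6.59 in rcf1-1. The differences were 0.59 ± 0.14 for PES, 0.75 ± 0.12 for BOP1 and 0.72 ± 0.15 for WDR12 (adjusted p = 0.0284, 0.00372 and 0.0149). In this complex the mutant lay above wild type in each gene, by more than the gap between the wild-type replicates. Of the other nucleolar assembly factors, EBP2 differed by 0.86 ± 0.16, adjusted p = 0.00717 and the RNA helicase PRH75 by 0.66 ± 0.13, adjusted p = 0.00931. RRS1 read 6.43 and 5.66 in wild type and 7.02 and 6.96 in rcf1-1, a difference of 0.94 ± 0.20, adjusted p = 0.0147, GAR1 differed by 0.93 ± 0.18, adjusted p = 0.00888 and BRX1-2 by 0.87 ± 0.23, adjusted p = 0.0451. In these 3 wild-type replicate 2 was the lowest array, and leaving it out brought the differences to 0.55, 0.61 and 0.35. The wild-type replicates of BRX1-2 were 7.54 and 6.5, further apart than the genotype means.

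The 4 genes that did not pass were NRPA2, a subunit of RNA polymerase I, at 0.84 ± 0.24 (adjusted p = 0.0625), BRX1-1 at 0.59 ± 0.19 (adjusted p = 0.0863), NOB1 at 0.40 ± 0.16 (adjusted p = 0.18) and RH10 at 0.28 ± 0.14 (adjusted p = 0.323). The number called in this list moved with single arrays. Without rcf1-1 replicate 1 only 1 of the 12 was called and without replicate 2 none, without wild-type replicate 1 there were 11 and without replicate 2 there were 6, and the 12-array fit called none and the 4 arrays alone 2.

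Families formed from gene symbols after the values had been seen describe other parts of the RNA machinery. All 12 subunits of the RNA polymerase family with a probe set were above 0, where 6145 of all 13333 genes were. Their median was 0.51, and 3 rose. These were NRPB6A, NRPB7 and NRPD7, higher by 0.74 ± 0.14, 0.70 ± 0.16 and at least 0.53 ± 0.14. Of 16 genes of organelle RNA processing 14 were above 0 and 2 rose, OTP81 by at least 1.23 ± 0.22 and PPR596 by 0.88 ± 0.18, both proteins that handle organelle transcripts. None of the 15 ribosomal protein genes (RPL and RPS) was called, where 4.76% of all genes were, and their median was -0.14. Genes of RNA binding and splicing that were called, singled out after their values were seen, were LSM6A, a core protein of LSM rings, higher by 0.79 ± 0.20, Y14, a core of the exon junction complex, by 0.53 ± 0.14, and AtRZ-1c, a glycine-rich RNA-binding protein, by 0.74 ± 0.13. These 8 genes, from NRPB6A to AtRZ-1c, were each called in 1 or 2 of the 4 leave-one-out fits and not with all 12 arrays. In the RNA polymerase family 9 were called when wild-type replicate 1 was left out, 1 when replicate 2 was, and none when either rcf1-1 array was. In the splicing list itself, only RH45 of 20 genes was paired with a probe set. RH45, a DEAD-box helicase closely related to RCF1, differed by -0.06 ± 0.12 (adjusted p = 0.847). The probe sets sum over splice forms, and RCF1 itself is not analysed here.

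**Figure D3:**
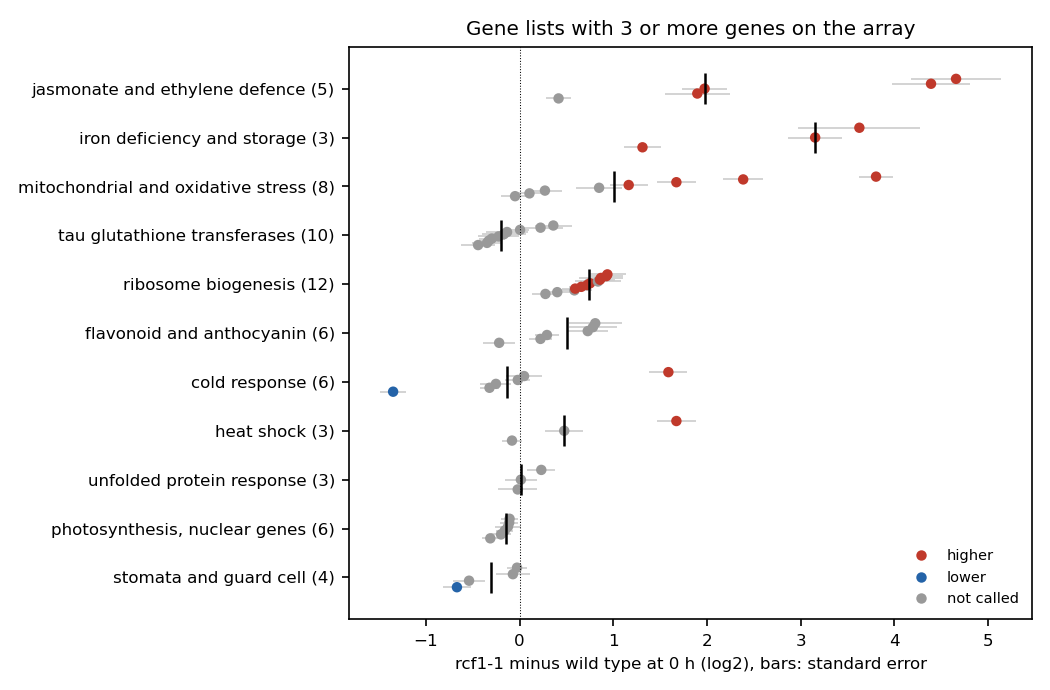
Differences between rcf1-1 and wild type at 0 h on the log2 scale, 1 point per gene with its standard error, for lists with 3 or more genes paired with a probe set. Vertical lines are list medians, highest for iron deficiency (3.16) and for jasmonate and ethylene defence (1.98), whereas the photosynthesis genes lie between -0.31 and -0.11.

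Among the genes lower in rcf1-1, were expansins and endoglucanases, enzymes and proteins of the cell wall. The lowest gene was AT5G59130, without a symbol here, at 5.42 and 5.31 in wild type and 3.31 and 3.19 in rcf1-1, a difference of -2.12 ± 0.17, which is a lower bound in size (adjusted p = 3.46e-05). EXPB3, a beta-expansin of the family that loosens cell walls, read 8.01 and 8.58 in wild type and 6.45 and 6.58 in rcf1-1, a difference of -1.78 ± 0.20 (adjusted p = 0.000319). EXPB1, of the same family, read 5.09 and 5.88 in wild type and 4.43 and 3.75 in rcf1-1, a difference of -1.39 ± 0.27 (adjusted p = 0.0103). In the expansin family 12 of 14 genes lay below 0, where 6145 of all 13333 genes lay above 0. EXPB3 and EXPB1 fell and none rose. Of the endoglucanases of glycosyl hydrolase family 9, 13 of 15 lay below 0, 4 fell and none rose. GH9B8 read 6.80 and 7.32 in wild type and 5.70 and 5.92 in rcf1-1, a difference of -1.26 ± 0.22 (adjusted p = 0.0058), and GH9B13, GH9C2 and GH9B7 differed by -1.02, -0.91 and -0.67. Of 9 xyloglucan endotransglucosylases only XTH32 fell (-0.89 ± 0.18, adjusted p = 0.0103), and the family's median was 0.11. Of wall genes outside these families or lists, EXGT-A3, another xyloglucan endotransglucosylase, was higher (0.49 ± 0.12, adjusted p = 0.0266), and so was CSLA01, by at least 0.62 ± 0.13, adjusted p = 0.0164. CSLA01 was the only gene called of 7 cellulose synthase and related genes, where 4.76% of all genes were called. EXPB1 was not called without wild-type replicate 2 or rcf1-1 replicate 2, and no gene of family 9 was called when either rcf1-1 array was left out. These wall families, too, were formed after the values had been seen.

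COR15A was lower in the mutant before any cold. This gene, which encodes a chloroplast protein that protects membranes during freezing, read 5.38 and 5.15 in wild type and 4.05 and 3.78 in rcf1-1, a difference of -1.35 ± 0.13, which is a lower bound in size (adjusted p = 0.000142). The replicates of each genotype lay within 0.3 of each other, and each leave-one-out fit called it, but the 12-array fit did not (adjusted p = 0.596). Of 19 listed cold genes 6 were paired with a probe set, and COR15A was the only gene of these to fall. STZ, a zinc finger repressor induced by cold, salt and drought, was the only one to rise, at 3.39 and 4.06 in wild type and 5.51 and 5.11 in rcf1-1, at least 1.59 ± 0.20 (adjusted p = 0.000769). COR47, COR27, COR15B and COR28 differed by -0.32, -0.25, -0.02 and 0.05, and none passed the test. The list's median was -0.14.

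LEA4-5 and LEA18 belong to the late embryogenesis abundant proteins, which accumulate in drying seeds and water-stressed leaves, and both were lower. LEA4-5 was the only gene of the 12 in the abscisic acid list that the annotation used paired with a probe set. It read 4.47 and 5.42 in wild type and 3.85 and 3.44 in rcf1-1, a difference of -1.3 ± 0.27, again a lower bound in size (adjusted p = 0.0148). LEA18 read 3.82 and 5.01 in wild type and 3.32 and 2.98 in rcf1-1, with a difference of -1.26 ± 0.30 and the same limit (adjusted p = 0.0244), and neither was called without wild-type replicate 2 or without either rcf1-1 array. DI21, named for induction by drought and picked after its value was seen, was higher instead (0.76 ± 0.18, adjusted p = 0.0243). HIS1-3, a linker histone induced by drought and abscisic acid, read 5.65 and 6.75 in wild type and 4.62 and 4.35 in rcf1-1, a difference of -1.72 ± 0.27 (adjusted p = 0.0034), not called without rcf1-1 replicate 2. In LEA4-5, LEA18 and HIS1-3 the wild-type replicate 2 value stood about 1 unit above replicate 1. BGLU19, a beta-glucosidase, read 4.61 and 6.70 in wild type and 3.92 and 3.98 in rcf1-1. Its difference was -1.70 ± 0.45 (adjusted p = 0.0439), a lower bound only with regard to the low signal. It ranged from -2.75 to -0.66 over the leave-one-out fits, being smallest in size without wild-type replicate 2. It was called in 1 of the 4, and AT5G22460 and AT2G41190 were called in all 4, at -1.71 ± 0.19 and -1.51 ± 0.16. Of the other named lower genes, AT5G45310 had a difference of -1.35, a lower bound in size that was called in all 4 fits. AT3G17520 and AT1G04560 had differences of -1.57 and -1.34, also lower bounds in size, which were -0.81 and -0.80 without wild-type replicate 2. AT5G01015 differed by -1.32, and by -0.89 without wild-type replicate 1. These 3 were called in 1 or 2 of the 4 fits.

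**Figure D4:**
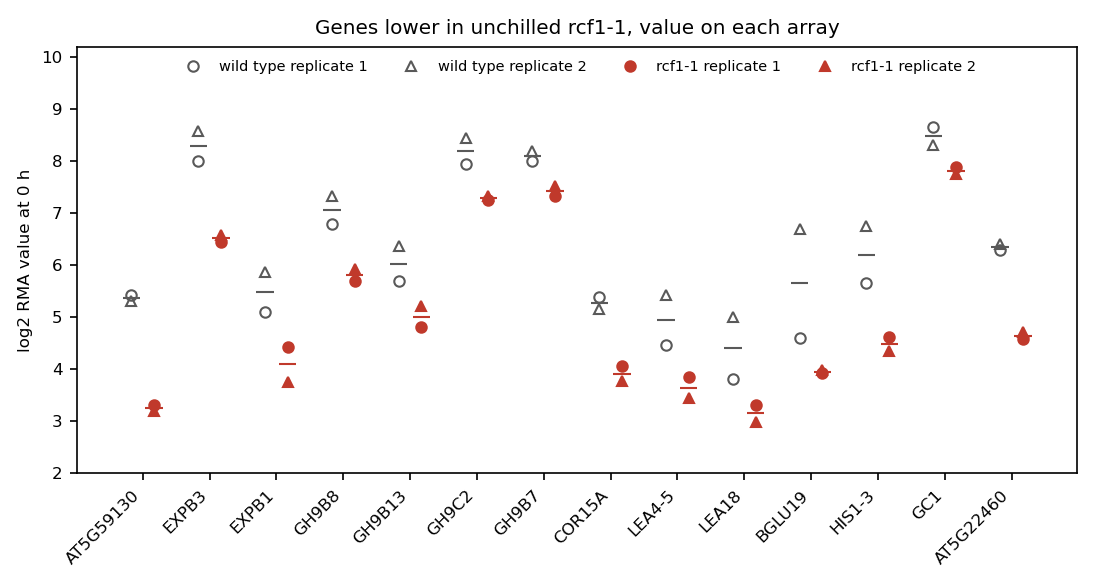
Log2 RMA values at 0 h of genes lower in rcf1-1, with a point for each array and a short line at each group mean. Genotypes do not overlap in any of them, which holds for every called probe set. The replicates of wild type lie furthest apart in BGLU19, at 4.61 and 6.70.

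Genes of the photosynthetic apparatus were close to wild type, and the few that passed the test were lower. Of 23 listed nuclear photosynthesis genes 6 were paired with a probe set. All 6 lay below 0, between -0.31 and -0.11, and none passed the test. After a second quantile normalization 2 of the 6 lay above 0, with a range of -0.15 to 0.03. The most negative was PSAE-1, a subunit of photosystem I, at -0.31 ± 0.09 (adjusted p = 0.0639). A larger family of photosystem, antenna and NDH subunits was drawn from the symbols. Of its genes 32 of 41 lay below 0, where 6145 of all 13333 genes lay above 0. The family's median was -0.20, 5 fell and none rose. Those that fell were LHCB4.3, a minor antenna protein (-0.76), NdhL and NdhN, subunits of the chloroplast NDH complex (-0.70 and -0.52), and PSAN and PSBY, small subunits of photosystems I and II (-0.51 and -0.44). Each of these 5 was called in 1 or 2 of the 4 leave-one-out fits. Other genes of chloroplast proteins could be higher, such as Cpn60beta3, a chaperonin subunit picked after its value was seen (0.70 ± 0.14, adjusted p = 0.0138). RCA, the activase of Rubisco and the marker of green tissue, read 12.63 and 12.87 in wild type and 12.64 and 12.64 in rcf1-1, near the top of the arrays' range in both genotypes.

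Of the marker genes of cell types paired with a probe set, only a guard cell gene passed the test. PYK10, an abundant beta-glucosidase of roots and hypocotyls, read 11.49 and 11.61 in wild type and 11.56 and 11.63 in rcf1-1, so it was high in all 4 samples. EXPA7, an expansin of root hairs, differed by -0.08 ± 0.19 (adjusted p = 0.88). Of the 4 genes of stomata and guard cells, GC1 (AT1G22690), a guard cell gene, fell from 8.49 to 7.82 (-0.67 ± 0.15, adjusted p = 0.0176), and was not called without either rcf1-1 array. SPCH, which starts the stomatal lineage, differed by -0.54 ± 0.17 (adjusted p = 0.0884), and MUTE and FMA, which act later in it, by -0.03 and -0.07. The list's median was -0.31 with all 4 genes below 0, MUTE being above 0 after a second quantile normalization, and its part in the other results was not tested.

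Other lists held no called gene among those paired with a probe set. The 10 tau glutathione transferases, detoxifying enzymes that many stresses raise, ran from -0.44 to 0.36 with a median of -0.20. The 6 flavonoid and anthocyanin genes had a median of 0.51, but none passed the test, DFR, the first enzyme committed to anthocyanin, being at 6.35 and 7.20 in wild type and 7.53 and 7.58 in rcf1-1 (0.78 ± 0.25, adjusted p = 0.0934). The 3 genes of the unfolded protein response had a median of 0.01, among them BZIP60, its membrane-bound transcription factor, at 0.01 ± 0.17 (adjusted p = 0.982). GI, the only gene paired with a probe set of 12 listed clock genes, differed by -0.06 ± 0.16 (adjusted p = 0.894). SAG101, the only gene so paired of 17 listed for salicylic acid defence, differed by -0.13 ± 0.15 (adjusted p = 0.704). The 2 senescence genes differed by 0.01 and 0.43. The lists of phosphate, sulphur, trichome and flower genes had no gene paired with a probe set.

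Whether the unchilled differences were also present in the cold was examined in the other seedlings, chilled for 12 h. There 3107 probe sets, 13.7% of those tested, differed between the genotypes, 1303 higher (5.73%) and 1804 lower (7.93%) in rcf1-1. Of the 742 higher at 0 h, 321 were called higher at 12 h and 21 lower, which is 43.3% of the 0 h list and 24.6% of the 12 h list. Of the 492 lower at 0 h, 217 were called lower at 12 h and 11 higher, or 44.1% and 12.0% of the lists. The arrays at the 2 times are separate, but the estimate of the spread is shared. The change of the genotype difference from 0 h to 12 h was itself tested and was called for 685 probe sets, 3.01% of those tested (1.1% with the mutant moving up relative to wild type, 1.91% down), and for 2.6% of genes. With all 12 arrays these counts were 307 at 12 h and 20 for the change, and with 1 array left out the latter lay between 223, without the unchilled rcf1-1 replicate 2, and 1525, without the unchilled wild-type replicate 1. Among the 1234 it was called for 148, with the difference smaller at 12 h, taken in the direction it had at 0 h, in 131 and larger in 17. The 1234 were picked by the 0 h difference, which is itself part of the change. That choice favours a call and a smaller difference at 12 h, so the 148 and their split show nothing by themselves.

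The 4 called genes of the jasmonate and ethylene list were also called above wild type in the chilled seedlings. For PDF1.2 the values at 12 h were 3.76 and 3.21 in wild type and 8.33 and 9.03 in rcf1-1, a difference of at least 5.19, and the change between the times was 0.80 ± 0.59 (adjusted p = 0.574). AT4G33720 differed by at least 5.27 at 12 h and UPOX by at least 4.15, with changes of 0.31 ± 0.47 and 0.34 ± 0.26 (adjusted p = 0.817 and 0.576). These genes were thus far above wild type at both times, and a change between the times was not shown. Their wild-type means lay below every array median at both times, so the changes compare lower bounds and give no size. ORA47 went another way, with a difference of -0.00 at 12 h (adjusted p = 0.996) and a change of -1.69 ± 0.25 (adjusted p = 0.00212). None of the jasmonate and ethylene list was called for such a change.

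Of the iron deficiency genes, BHLH101 and PYE were near wild type after chilling. At 12 h BHLH101 read 2.51 and 2.41 in wild type and 2.70 and 2.90 in rcf1-1, so that its difference fell to 0.34 and the change was -2.81 ± 0.41 (adjusted p = 0.00199). PYE read 3.26 and 3.34 in wild type and 3.42 and 3.06 in rcf1-1, a difference of -0.06 and a change of -1.37 ± 0.27 (adjusted p = 0.015). PYE values of the genotypes overlapped after chilling, those of BHLH101 did not, and both genes lay below every array median there, in both genotypes. The difference of IMA1 at 12 h was 1.21 and did not pass the test (adjusted p = 0.26), and its change of -2.42 ± 0.92 did not pass (adjusted p = 0.212).

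COR15A differed before the cold, and a difference was not found after it. At 12 h it read 12.53 and 12.48 in wild type and 12.48 and 12.39 in rcf1-1, a difference of -0.07, and the change from 0 h was 1.28 ± 0.19 (adjusted p = 0.00232). These chilled values are near the top of the arrays' range, and the part of signal saturation was not tested. LEA4-5 and EXPB1, lower before chilling, differed by 0.31 and 0.25 at 12 h, with changes of 1.62 ± 0.39 and 1.64 ± 0.39 (adjusted p = 0.0389 and 0.0354). At 12 h EXPB1 lay below every array median in both genotypes. The mitochondrial list had larger differences at 12 h, from a median of 1.01 at 0 h to 3.36 at 12 h, and 4 of its 8 genes were called for the change. AT2G41730, for one, went from 1.16 to 4.99 (change 3.82 ± 0.29, adjusted p = 9.55e-06). The ribosome biogenesis list had a median of 0.19 at 12 h, and 1 of its 12 genes, WDR12, was called for the change (-0.97 ± 0.22, adjusted p = 0.0263).

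**Figure D5:**
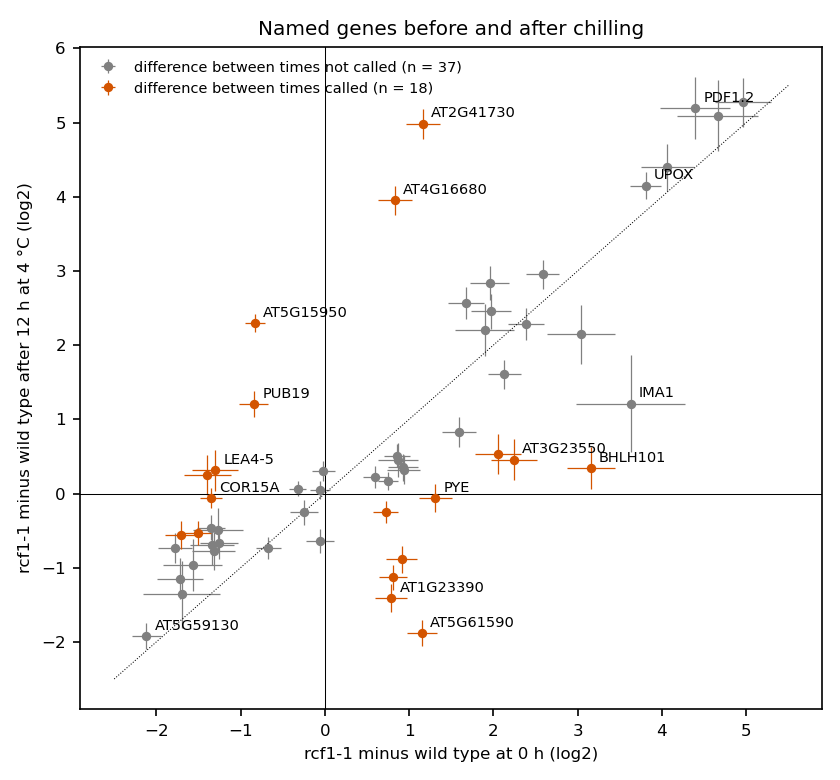
Difference between rcf1-1 and wild type after 12 h at 4 °C against that at 0 h, both on the log2 scale with standard errors, for 55 named genes. The dotted line marks equal differences. In 18 genes the change between the times was called, among them BHLH101, COR15A and AT2G41730, whereas PDF1.2 and UPOX lie near the line. Some genes were named for this change or for their 0 h difference, and over all probe sets 3.01% were called for it.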

How the data were processed

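The deposited values are 1 log2 value per probe set and array, which the authors made with RMA (background correction, normalization and summarization), per the submitters' processing notes. Its software, version and array set were not given in the sources used here, and no scan date was used. Of 22810 probe sets, 64 controls were left out of the tests. The array's annotation gives exactly 1 gene for 13513 probe sets, several for 503 and none for 8730. Loci and symbols come from the TAIR10.1 gene table. UPOX, HSP23.5, IMA1, BOP1, WDR12, RRS1, EBP2, BRX1-1, BRX1-2, GAR1, RH10, GC1, RH45 and COR28 are names given to their loci from general knowledge. Probe sets ending in _x_at can bind related transcripts.

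From these values, a mean per group was fitted with limma 3.58.1 in R 4.3.3 on the 8 arrays at 0 h and 12 h, leaving 4 residual degrees of freedom (9.87 prior degrees of freedom, eBayes with a trend). Two-sided p-values were adjusted with the Benjamini-Hochberg procedure over 22746 probe sets within a contrast, and calls required an adjusted p under 0.05. Errors are limma's standard errors. With 2 arrays per group the number of arrays limits the precision. A called difference whose lower group mean lies below the lowest array median (4.04) is given as a lower bound. This refers to the low signal only, and the spread between replicates can still make the measured difference too large. Differences not called are given as measured, also where a group mean lies that low. A gene in a list is represented by its probe set with the highest mean. Of 306 genes in 22 lists, 73 were paired with a probe set. For the rest the annotation used names no probe set of that gene alone, which does not show that the array lacks them.

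Named were the 15 largest called differences in each direction with 1 gene and groups apart. Up to 4 called members per list and a fixed set of genes were added. Also named were the 5 largest called changes between the times in each direction, among genes called at 0 h. Genes not called at 0 h could change more, as AT2G32020 did, with a called change of 4.75 ± 0.27. The comparison and the lists were chosen with earlier results of these data known, and so support nothing by their choice. The families were chosen after the values were seen. The procedure was tested on simulated data. Alternatives were all 12 arrays, the 4 arrays alone, no trend, array weights, a filter at the 30th percentile, a second quantile normalization, a 2-fold minimum, a replicate block and each array left out. The counts of list and family genes under each of these were added after seeing the data.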

Additional observations from a re-analysis of the deposited data

Results flagged for a closer look

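For 18 of the 55 named genes the difference between rcf1-1 and wild type changed between 0 h and 12 h, by limma's test of the change itself on the log2 scale. The share over all probe sets was 3.01%, and 2.6% of genes. Of the 55, 10 met the rule for the largest called changes among genes called at 0 h. A further rule took 15 in each direction by the 0 h difference, which enters the change. The 18 are thus partly a product of how genes were named. In 9 of the 18 the change was downward. Iron deficiency genes are among these, BHLH101, which went from 3.16 to 0.34, a change of -2.81 (adjusted p = 0.00199), and PYE, which went from 1.31 to -0.06, a change of -1.37 (adjusted p = 0.015). WDR12, of ribosome assembly, went from 0.72 to -0.25, a change of -0.97 (adjusted p = 0.0263). Of the genes without a symbol, AT3G23550 went from 2.24 to 0.46, a change of -1.79 (adjusted p = 0.0242). AT5G05600 went from 2.05 to 0.53, a change of -1.52 (adjusted p = 0.0499). Neither difference was called at 12 h (adjusted p = 0.323 and 0.238). In 4 others the difference was called at both times, with opposite signs. AT5G61590, known as DEWAX, a repressor of wax synthesis, went from 1.15 to -1.88, a change of -3.03 (adjusted p = 2.08e-05). AT1G23390 went from 0.79 to -1.41, a change of -2.20 (adjusted p = 0.00052). AT3G15720 went from 0.81 to -1.13, a change of -1.94 (adjusted p = 0.000687), and AT4G37190 from 0.91 to -0.89, a change of -1.80 (adjusted p = 0.00204).

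In the other 9 the change was upward. Those above wild type at both times were AT2G41730, of the mitochondrial list, which went from 1.16 to 4.99, a change of 3.82 (adjusted p = 9.55e-06), and AT4G16680, which went from 0.83 to 3.95, a change of 3.12 (adjusted p = 4.7e-05). AT5G15950 read 8.48 and 8.47 in wild type and 7.67 and 7.61 in rcf1-1 at 0 h and 7.80 and 7.66 in wild type and 10.04 and 10.00 in rcf1-1 at 12 h. It thus crossed from lower to higher, from -0.83 to 2.29, a change of 3.13 (adjusted p = 7.07e-07). PUB19, a ubiquitin ligase of drought responses, also crossed, from -0.84 to 1.21, a change of 2.05 (adjusted p = 0.000478). LEA4-5 and EXPB1 went from -1.3 to 0.31, a change of 1.62 (adjusted p = 0.0389), and from -1.39 to 0.25, a change of 1.64 (adjusted p = 0.0354). COR15A went from -1.35 to -0.07, a change of 1.28 (adjusted p = 0.00232). AT2G41190 was called lower at both times and went from -1.51 to -0.54, a change of 0.97 (adjusted p = 0.0336). AT5G22460, not called at 12 h (adjusted p = 0.0666), went from -1.71 to -0.56, a change of 1.15 (adjusted p = 0.0312). In BHLH101, AT3G23550, AT4G37190, AT3G15720, AT2G41730, AT4G16680, LEA4-5 and COR15A the 0 h difference is a lower bound in size, and in BHLH101, PYE, AT3G15720, AT4G16680 and EXPB1 a group mean at 12 h lies below every array median, so these changes are not exact sizes. Groups of 2 arrays were not examined for outlying arrays.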

How the results depend on the processing

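None of the 1234 called differences changed sign under any alternative. Of the 50 named or listed genes not called, 21 changed sign under at least 1 alternative, for example GI, which went from -0.06 to 0.18 without wild-type replicate 2. The 1234 calls at 0 h became 25 with all 12 arrays (21 higher, 4 lower), 13 with a 2-fold minimum and 331 with the 4 arrays alone, and between 156 and 2671 with 1 array left out. They stayed within 1.5 times with array weights (1327), a low-signal filter (1354), a second quantile normalization (1233), no trend (1044) and a replicate block (963). The 3107 calls at 12 h became 307 with all 12 arrays and 88 with a 2-fold minimum, and between 1212 and 4381 with 1 array left out. The 685 calls for the change between the times became 20 and 25, and between 223 and 1525. The 23 called list genes became 6, 5 and, with the 4 arrays alone, 13, and between 11 and 27. Of the 50 called named genes, 36 were not called with all 12 arrays, 40 with a 2-fold minimum, 16 with the 4 arrays alone, 5 without the trend, and 25 without rcf1-1 replicate 2. The cause of these losses was not tested. Same-numbered unchilled replicates did not deviate together (r = -0.07 between the genotypes). This gives no sign of pairing but cannot exclude it, and the labels do not state any. The replicate block changed the call of none of the named genes. Values below every array median limit what low genes such as PDF1.2 can show in wild type.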

Other observations

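Called genes of metabolism that have a symbol, singled out after their values were seen, moved in both directions at 0 h. Higher were PYRB, the aspartate transcarbamoylase of pyrimidine synthesis (1.0 ± 0.19, adjusted p = 0.00838), and CYTC-1, a cytochrome c (0.46 ± 0.11, adjusted p = 0.0293). PDC2, a pyruvate decarboxylase of fermentation, was higher as well (0.73 ± 0.13, adjusted p = 0.00678). Lower were MGL, a methionine gamma-lyase (-1.0 ± 0.19, adjusted p = 0.00795), F2KP, which sets the level of fructose 2,6-bisphosphate (-0.87 ± 0.13, adjusted p = 0.00162), and SBPASE, a bisphosphatase of the Calvin cycle (-0.43 ± 0.10, adjusted p = 0.0216). TAPX, the ascorbate peroxidase of the thylakoid, was lower (-0.81 ± 0.13, adjusted p = 0.0037), as was TRXF2, a thioredoxin of the chloroplast (-0.62 ± 0.14, adjusted p = 0.0241). HCF101, needed for iron-sulphur clusters of photosystem I, was lower (-0.76 ± 0.15, adjusted p = 0.0106), and so was NOL, a chlorophyll b reductase (-0.88 ± 0.17, adjusted p = 0.00806). Of the 4 fits that leave out an unchilled array, F2KP was called in all 4 and TAPX in 3, CYTC-1 in 1 and the others in 2, and none was called with all 12 arrays.

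Called genes of cell division and turnover were likewise singled out after their values were seen. No list of cell division genes was examined. AUR1, an Aurora kinase, was lower (-0.69 ± 0.18, adjusted p = 0.0404), and so was 3xHMG-box2, a chromosome-binding protein of dividing cells (-1.07 ± 0.22, adjusted p = 0.012). ATG8D, of autophagy, was the only one of 10 genes of its family that was called, and it was higher (0.75 ± 0.17, adjusted p = 0.019). AUR1 was called in 1 of those 4 fits and the other 2 genes in 2, and none of them with all 12 arrays. None of 48 UDP-glycosyltransferases, 14 bZIP factors, 13 glutathione transferases, 11 auxin genes or 6 WRKY factors was called in the reported comparison, while unadjusted p was under 0.05 for 4451 probe sets overall. These families hold only paired genes with a symbol. With 4.76% of all genes called, few or no calls in sets of this size, autophagy included, are no result about the families.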
